A study of Mus musculus with 14 samples.

Results

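The genes described here encode the 3 TGF-beta ligands (Tgfb1, Tgfb2, Tgfb3), 3 of their receptors (Tgfbr1, Tgfbr2, Tgfbr3), 3 latent TGF-beta binding proteins (Ltbp1, Ltbp2, Ltbp3) and the matrix protein Tgfbi. They were taken by name, as array probe sets whose annotation gives one of these symbols and no other, and each of the 10 was measured by 1 probe set. They are 10 of 19938 genes tested, and all 10 passed the filter on dim genes used as an alternative. TGF-beta is secreted bound to its own propeptide, which holds it latent, and latent binding proteins couple this complex to the extracellular matrix until integrins or proteases set the ligand free. The free ligand joins the type II receptor (Tgfbr2) to the type I receptor (Tgfbr1), whose kinase phosphorylates Smad2 and Smad3, and these enter the nucleus with Smad4. In skeletal muscle the pathway is known for driving matrix production by fibroblasts and for restraining the differentiation of myoblasts.

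The arrays (Affymetrix Mouse Gene 1.0 ST) measured RNA of plantaris muscle from male C57BL/6J mice aged 5 months, all of one strain and with no transgene named in the labels. Muscle was collected at day 0 and 1, 3, 5, 7, 10 and 14 days into hypertrophy brought about by synergist ablation, an operation that removes the muscles working alongside the plantaris and so overloads it. Each of the 7 days has 2 arrays, one of pooled right and one of pooled left muscles, and a pool joins the RNA of 6 animals. The day 0 samples carry no treatment label, and sham-operated mice are not analysed here, so overload cannot be told apart from surgery or from time. The labels do not say if both pools of a day come from one set of mice, so the p-values reflect the spread between pools only, which may be technical.

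The tissue label was checked against 10 genes of skeletal muscle, among them Acta1 (skeletal actin) and Ckm (muscle creatine kinase). The day 0 means of these 2 were 14.39 and 14.30 on the log2 scale, higher than those of nearly all other genes. Array medians ran from 242.8 to 254.9 on the linear scale. Genes of hepatocytes, a cell type foreign to muscle, gave summed intensities of 12550 and 42230 in the 2 pools of day 0 and 18010 and 46820 at day 1. The higher sums belong to the left pool at day 0 and the right one at day 1. The pools of later days differed as well, with sums of 16380 and 26680 at day 3, 2758 and 14670 at day 5, 4024 and 6987 at day 7, 4698 and 12980 at day 10, and 5271 and 12290 at day 14. The side with the higher sum varied from day to day. Whether this bears on the values below was not tested, and the counts are also given without the 2 pools with the highest sums. The 10 genes differed little between pools: the median gap between the right and left pool of a day was 0.085 on the log2 scale, against 0.099 over all genes, and the largest was 0.35. In a limma fit with day and side, 0 of 10 differed between right and left pools after Benjamini-Hochberg adjustment, as did 0 of all genes (0% called), and at an unadjusted p under 0.05 the counts were 0 of 10 and 586 of 19938.

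All 10 genes changed over the 14 days by limma's moderated F test (adjusted p from 7.84e-09 for Tgfb3 to 0.00158 for Tgfbr1), a test that called 71.3% of all genes. Against day 0, limma called 5 of them higher and 2 lower at day 1, when 20.3% of all genes were called higher and 34.7% lower. At day 3, 6 were higher and 1 lower (all genes 24.2% and 23.4%). At day 5, 9 were higher and 0 lower (27.0% and 38.1%), and the counts were the same at day 7 (28.5% and 37.8%). By day 10 all 10 were higher (23.6% higher and 27.5% lower among all genes), as they were at day 14 (21.4% and 20.7%). Without the 2 pools highest in hepatocyte genes, 4 were higher and 3 lower at day 1, 5 higher and 1 lower at day 3, 9 higher at days 5 and 7, and 9 higher at days 10 and 14. Days 0 and 1 then have 1 array each, which is assumed to vary like the pools of the other days. With all arrays, the median change of the 10 was 0.04, 0.37, 0.83, 1.11, 0.91 and 0.77 at days 1, 3, 5, 7, 10 and 14 on the log2 scale, beside -0.14, -0.07, -0.16, -0.15, -0.11 and -0.08 over all genes. The gene that missed the threshold at days 5 and 7 was Tgfb2. Under quantile normalization the count of lower genes at day 1 was 4, because Ltbp1 (-0.33) and Tgfbr3 (-0.30) then passed the test.

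**Figure D1:**
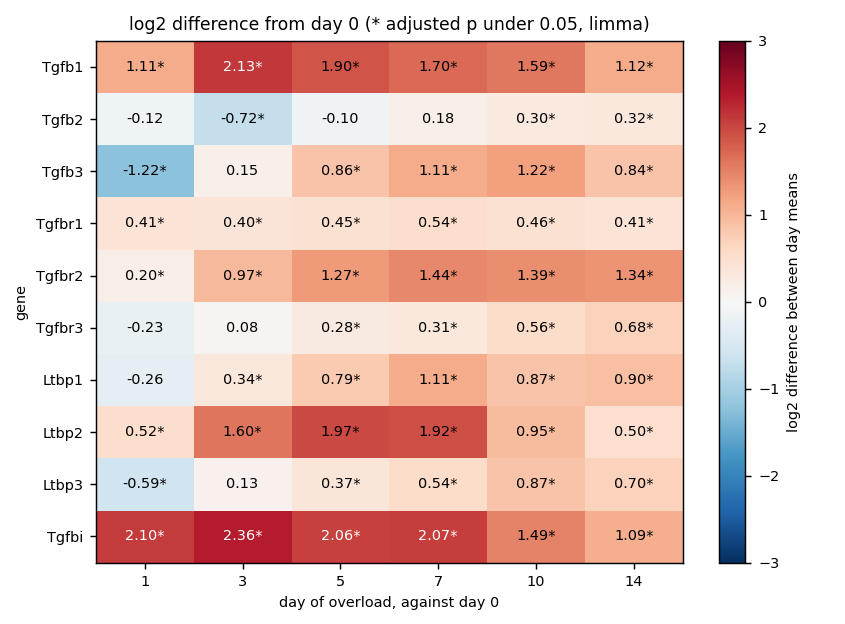
Log2 difference of the day mean from day 0 for each gene (rows) and day (columns), coloured from blue (below day 0) to red (above), with an asterisk where limma's adjusted p was under 0.05. Days 10 and 14 carry an asterisk for all 10 genes, and the falls called are those of Tgfb3 and Ltbp3 at day 1 and Tgfb2 at day 3.

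**Figure D2:**
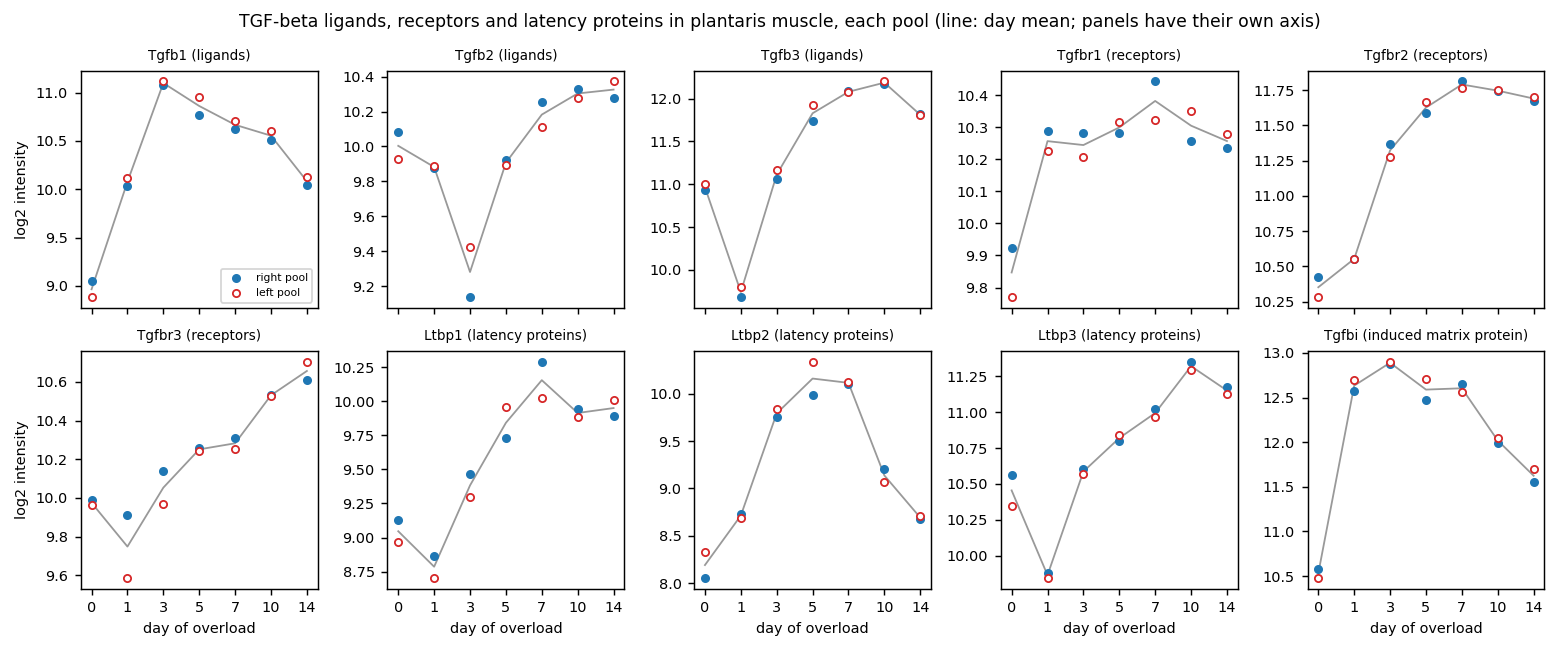
Log2 intensity of each gene (vertical axis, its own scale in each panel) in the right pool (filled) and left pool (open) of each day of overload, with a line through the day means. Tgfb1 and Tgfbi were highest at day 3, Tgfb2 was lowest at day 3, and Tgfb3, Ltbp1, Ltbp3 and Tgfbr3 were lowest at day 1.

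The ligands followed different courses. Tgfb1, the isoform carried by platelets and made by many leukocytes, measured 9.05 in the right and 8.88 in the left pool at day 0 on the log2 scale. It read 10.03 and 10.12 at day 1, 11.08 and 11.12 at day 3, 10.77 and 10.96 at day 5, 10.63 and 10.71 at day 7, 10.51 and 10.60 at day 10, and 10.04 and 10.13 at day 14. Every later pool lay above both day 0 pools. The day means fell in the order day 3, 5, 7, 10, 14, 1 and 0, and the pools overlapped only between days 14 and 1. The gene was 2.16-fold above day 0 at day 1 (log2 difference 1.11 ± 0.09, SE, 2 pools a day) and 4.39-fold at day 3 (2.13 ± 0.09, limma adjusted p = 1.07e-08). It was still 2.17-fold up at day 14, when its level was 0.78 ± 0.09 below that of day 5 on the log2 scale (adjusted p = 9.23e-05).

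Tgfb2, the ligand isoform whose propeptide lacks the integrin-binding RGD motif of the other isoforms, fell at day 3. Its right and left pools measured 10.08 and 9.93 at day 0, 9.88 and 9.89 at day 1, 9.14 and 9.43 at day 3 and 9.92 and 9.89 at day 5. They then read 10.25 and 10.11 at day 7, 10.33 and 10.28 at day 10, and 10.28 and 10.37 at day 14. Both day 3 pools lay below every other pool of the series, and the pools of days 10 and 14 overlapped. The gene stood 1.65-fold below day 0 at day 3 (-0.72 ± 0.10, limma adjusted p = 8.26e-05), at the same day at which Tgfb1 was highest. It rose from day 3 to day 5 by 0.63 ± 0.10 and was 0.30 ± 0.10 above day 0 at day 10 and 0.32 ± 0.10 at day 14. Those late calls are marginal: when the left day 0 pool was dropped, the values became 0.22 and 0.24 and neither was called. The day 10 call also ended without its own right (0.27) or left (0.33) array, and the day 14 call without its own left array (0.28).

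Tgfb3, an isoform expressed in many mesenchymal tissues, fell first and then rose. It measured 10.93 and 11.00 in the right and left pools of day 0, 9.68 and 9.80 at day 1, 11.06 and 11.16 at day 3 and 11.74 and 11.92 at day 5. The readings were 12.08 and 12.08 at day 7, 12.17 and 12.20 at day 10, and 11.82 and 11.80 at day 14. The day 1 pools were the lowest and the day 10 pools the highest, and only the pools of days 5 and 14 overlapped among neighbours in that order. Tgfb3 was 2.33-fold below day 0 at day 1 (-1.22 ± 0.08, limma adjusted p = 2.68e-07), and 1.6% of all genes had a lower value. It did not pass the test at day 3 (0.15 ± 0.08) and was 2.33-fold above day 0 at day 10 (1.22 ± 0.08, adjusted p = 3e-07). At day 1 the 3 ligands therefore read 1.11, -0.12 and -1.22 for Tgfb1, Tgfb2 and Tgfb3, and at day 3 they read 2.13, -0.72 and 0.15. Differences between ligands were not tested.

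The stretch of 250 bases upstream of the RefSeq start is shown for the 2 ligands that moved in opposite directions at day 3 and for the 2 other genes, Ltbp2 and Tgfbi, that were called higher at every day and lower at day 14 than at day 5, as Tgfb1 was. Sequences and coordinates are RefSeq's on GRCm38.p6, and 8 of the 10 genes matched that table, with Tgfb3 and Tgfbr3 unmatched. The windows are chr7:25686752-25687001 (plus strand) for Tgfb1, chr1:186705990-186706239 (minus strand) for Tgfb2, chr12:84876492-84876741 (minus strand) for Ltbp2 and chr13:56609336-56609585 (plus strand) for Tgfbi. Each is written 5′ to 3′ along its gene, ending at the base before the start, and capitals mark the motifs searched.
Tgfb1: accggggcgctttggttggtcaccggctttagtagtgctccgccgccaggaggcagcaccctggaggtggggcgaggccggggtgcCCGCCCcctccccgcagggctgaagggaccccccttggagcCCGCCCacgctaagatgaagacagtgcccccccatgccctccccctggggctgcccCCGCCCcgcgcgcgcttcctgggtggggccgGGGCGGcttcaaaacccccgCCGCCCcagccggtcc
Tgfb2: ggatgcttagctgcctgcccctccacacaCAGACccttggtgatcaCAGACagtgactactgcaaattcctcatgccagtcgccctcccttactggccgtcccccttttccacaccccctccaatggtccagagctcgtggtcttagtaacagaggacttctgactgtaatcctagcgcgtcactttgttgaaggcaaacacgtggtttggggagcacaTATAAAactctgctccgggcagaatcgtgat
Ltbp2: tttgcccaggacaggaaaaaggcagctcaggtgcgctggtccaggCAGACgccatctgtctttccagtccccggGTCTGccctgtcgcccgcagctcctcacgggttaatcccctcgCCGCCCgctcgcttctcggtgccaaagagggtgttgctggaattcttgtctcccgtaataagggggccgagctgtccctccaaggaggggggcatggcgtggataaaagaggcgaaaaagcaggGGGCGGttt
Tgfbi: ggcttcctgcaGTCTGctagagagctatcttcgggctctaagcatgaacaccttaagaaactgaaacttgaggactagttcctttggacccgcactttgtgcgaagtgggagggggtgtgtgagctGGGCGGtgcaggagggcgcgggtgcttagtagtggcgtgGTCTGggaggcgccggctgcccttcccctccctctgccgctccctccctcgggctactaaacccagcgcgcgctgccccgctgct

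Motifs were searched on both strands of all 32851 RefSeq windows of this length, and were picked after the sequences had been seen. The GC box GGGCGG occurred 5 times in the Tgfb1 window, 2 times in that of Ltbp2, once in that of Tgfbi and not in that of Tgfb2, and 32.7% of all windows hold it. The TATA box letters TATAAA occurred in the Tgfb2 window, 31 bases before the start, and in none of the other 3, against 12.4% of all windows. The letters CAGAC, part of a Smad-binding element, occurred 2 times each in the windows of Tgfb2, Ltbp2 and Tgfbi and not in that of Tgfb1, and 42.2% of all windows hold them. The AP-1 letters TGANTCA were in none of the 10 windows of these genes (6.7% of all windows), and the cyclic AMP element TGACGTCA was in 1, a window of Ltbp1 (1.5% of all windows). No 2 matches overlapped in the printed windows. GC content was 75.2% for Tgfb1, 53.6% for Tgfb2, 61.6% for Ltbp2 and 62.4% for Tgfbi, and the median window had 52.4%.

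The receptors rose without a called fall at any day against day 0. Tgfbr2, the type II receptor that binds the ligand, measured 10.42 and 10.28 in the right and left pools of day 0, 10.55 and 10.56 at day 1, 11.37 and 11.28 at day 3 and 11.59 and 11.67 at day 5. It read 11.81 and 11.77 at day 7, 11.74 and 11.75 at day 10, and 11.68 and 11.70 at day 14. No 2 neighbouring days in its order overlapped, although the top 4 day means lay within 0.16 of each other (11.79 at day 7 and 11.63 at day 5). The gene was 1.96-fold above day 0 at day 3 (0.97 ± 0.07, limma adjusted p = 5.76e-07), 2.71-fold at day 7 (1.44 ± 0.07) and 2.52-fold at day 14 (1.34 ± 0.07), and day 14 against day 5 did not pass the test (0.06 ± 0.07). Its call at day 1 (0.20 ± 0.07) is marginal and ended when the left day 0 pool was dropped (0.13), when either day 1 array was dropped (0.203 right, 0.199 left), and under quantile normalization (0.14).

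Tgfbr1, the type I receptor kinase, moved once and by less. Its day 0 pools read 9.92 and 9.77, and its 12 later pools lay between 10.21 and 10.44, all above day 0. The change was 0.41 ± 0.08 at day 1 (1.33-fold, limma adjusted p = 0.001) and between 0.40 and 0.54 at the 5 later days, and no step between consecutive days after day 1 passed the test. The pools of its neighbouring days overlapped at all places in the order except between days 5 and 14 and between days 3 and 0.

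Tgfbr3, the co-receptor also called betaglycan, which presents TGF-beta2 in particular to the type II receptor, rose late. Its pools read 9.99 and 9.96 at day 0, 9.91 and 9.59 at day 1, and 10.61 and 10.70 at day 14, the highest of the series. It was 0.56 ± 0.10 above day 0 at day 10 and 0.68 ± 0.10 at day 14 (1.60-fold, limma adjusted p = 0.000239), and the -0.23 ± 0.10 of day 1 did not pass the test (adjusted p = 0.0758), although it was called, at -0.39, when the right day 1 array was dropped. The calls at day 5 (0.28 ± 0.10) and day 7 (0.31 ± 0.10) each ended under quantile normalization (0.19 and 0.20) and when single arrays were dropped. For day 5 these were either day 0 array (0.29 without the right, 0.26 without the left) and either day 5 array (0.27 and 0.28). For day 7 they were either day 0 array (0.32 and 0.29) and the right day 7 array (0.28).

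The latent TGF-beta binding proteins separated in time. Ltbp2, a microfibril-associated member of the family that does not itself bind latent TGF-beta, measured 8.06 and 8.32 in the right and left pools of day 0, 8.73 and 8.69 at day 1, 9.75 and 9.84 at day 3 and 9.98 and 10.33 at day 5. It read 10.10 and 10.12 at day 7, 9.20 and 9.07 at day 10, and 8.67 and 8.71 at day 14. The pools of days 5 and 7 overlapped at the top of the order and those of days 1 and 14 lower down, and every later pool lay above both day 0 pools. It was 3.92-fold above day 0 at day 5 (1.97 ± 0.12, limma adjusted p = 1.11e-07), then fell from day 7 to day 10 by 0.98 ± 0.12 (adjusted p = 0.000811), and was 1.42-fold above day 0 at day 14 (0.50 ± 0.12). Of all genes, 0.5% had a lower value for day 14 against day 5 than the -1.47 ± 0.12 of Ltbp2.

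Ltbp1, which binds the latent complex covalently and anchors it to matrix, read 9.13 and 8.96 at day 0, 8.87 and 8.71 at day 1, and 10.29 and 10.02 at day 7, its highest day. Its change was 0.79 ± 0.12 at day 5, 1.11 ± 0.12 at day 7 (2.15-fold, limma adjusted p = 8.21e-06) and 0.90 ± 0.12 at day 14, and the pools of days 14, 10 and 5 overlapped each with the next in the order. The call at day 3 (0.34 ± 0.12) is marginal and ended when the left day 0 array (0.254) or the right day 3 array (0.250) was dropped and under quantile normalization (0.22).

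Ltbp3, another carrier of latent TGF-beta, fell to 9.88 and 9.85 at day 1 from 10.56 and 10.35 at day 0, and the day 1 pools were its lowest. The fall was 1.51-fold (-0.59 ± 0.08, limma adjusted p = 6.36e-05). It did not pass the test at day 3 (0.13 ± 0.08), and was 0.24 and called when the right day 0 array was dropped. It was highest at day 10, at 11.35 and 11.29, 1.82-fold above day 0 (0.87 ± 0.08, adjusted p = 3.6e-06), with no overlap between any neighbouring days in its order. Ltbp3 and Tgfb3 were the genes of the 10 called lower at day 1, and both were highest at day 10.

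Tgfbi, a secreted adhesion protein named for its induction by TGF-beta, had the largest rise of the 10 at days 1, 3, 5 and 7. Ltbp2 was close to it at day 5 (1.97, against 2.06 for Tgfbi) and day 7 (1.92, against 2.07 for Tgfbi). For Tgfbi the values of each pool follow. Its right and left pools measured 10.58 and 10.48 at day 0, 12.57 and 12.70 at day 1, 12.88 and 12.90 at day 3 and 12.47 and 12.70 at day 5. They read 12.65 and 12.56 at day 7, 11.99 and 12.04 at day 10, and 11.55 and 11.70 at day 14. The pools of days 1, 7 and 5 overlapped each with the next, and all later pools lay above both day 0 pools. The rise was 4.29-fold at day 1 (2.10 ± 0.09, limma adjusted p = 1.7e-08), 5.12-fold at day 3 (2.36 ± 0.09, adjusted p = 8.12e-09) and 2.13-fold at day 14 (1.09 ± 0.09). At day 3 the change was larger than that of 99.0% of the genes.

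Among the steps between consecutive days from day 1 on, that from day 1 to day 3 had the most calls. In that step limma called 7 of 10 higher and 1 lower, where 21.5% of all genes were called higher and 13.2% lower. The fall was that of Tgfb2 (-0.60 ± 0.10), and the largest rises were those of Tgfb3 (1.37 ± 0.08), Ltbp2 (1.08 ± 0.12) and Tgfb1 (1.02 ± 0.09). Tgfbr1 (-0.01 ± 0.08) and Tgfbi (0.26 ± 0.09, adjusted p = 0.0518) were not called. The smallest rise, that of Tgfbr3 (0.30 ± 0.10), lost its call when the left day 1 array (0.14), the right day 3 array (0.22) or either day 10 array was dropped. From day 3 to day 5, 4 rose and 0 fell (6.41% and 4.74% of all genes), with Tgfb3 (0.72 ± 0.08) and Tgfb2 (0.63 ± 0.10) ahead of Ltbp1 and Tgfbr2. Ltbp1 (0.46 ± 0.12) and Tgfbr2 (0.30 ± 0.07) lost their calls when either day 3 array or the left day 5 array was dropped, at 0.35 to 0.54 and 0.26 to 0.35. In the last of these fits Tgfbi was called lower, at -0.42. From day 5 to day 7, 0 of 10 passed in either direction, as did 0.667% higher and 0.487% lower of all genes.

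The later steps went both ways. From day 7 to day 10, limma called Ltbp3 higher (0.33 ± 0.08) and Ltbp2 (-0.98 ± 0.12) and Tgfbi (-0.59 ± 0.09) lower, where 6.95% of all genes were called higher and 9.52% lower. The call of Ltbp3 ended when any 1 array of days 7 and 10 was dropped, at 0.297 to 0.356. From day 10 to day 14, 0 rose and 3 fell (2.11% and 2.56% of all genes): Tgfb1 (-0.47 ± 0.09), Tgfbi (-0.39 ± 0.09) and Tgfb3 (-0.38 ± 0.08). The count was 0 when any 1 of the 4 arrays of those days was dropped, and the call of Tgfbi also ended when any 1 array of days 3 and 7 was dropped. Ltbp2 (-0.45 ± 0.12, limma adjusted p = 0.0552) just missed the threshold. It was called under quantile normalization (-0.44), with a trended or robust prior, without the dimmest genes, with the arrays of those 2 days alone, and when any 1 array of day 0 or day 5 was dropped. Setting day 14 against day 5, 3 genes were higher and 3 lower (14.7% and 14.7% of all genes). The lower ones were Ltbp2 (-1.47 ± 0.12), Tgfbi (-0.96 ± 0.09) and Tgfb1 (-0.78 ± 0.09), and the higher ones were Tgfb2 (0.42 ± 0.10), Tgfbr3 (0.41 ± 0.10) and Ltbp3 (0.33 ± 0.08). Dropping the left array of day 5 or of day 14 ended the calls of Tgfb2 (0.405 and 0.372) and Tgfbr3 (0.398 and 0.359), and dropping the right day 14 array ended that of Ltbp3 (0.309).

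For each member the genes closest in pattern were taken as the 2 with the highest Pearson r over the 14 arrays. They came from 10816 genes called by the F test and not among the dimmest. Unnamed gene models, small RNAs, odorant and vomeronasal receptors and Y-linked genes were left out. So was any gene whose symbol starts with Igh, Igk, Igl, Tra, Trb, Trg or Trd, as those of immunoglobulins and T cell receptors do. The arrays share their days, so many genes reach a high r and the values describe these arrays only. Tgfb1 lay closest to Grn (progranulin, r = 0.987) and Slc7a7 (an amino acid transporter, r = 0.986), and Tgfbi to Dock2 (a leukocyte Rac activator, r = 0.996) and H13 (0.996). Tgfbr2 lay closest to Col3a1 (collagen III, r = 0.998) and Fstl1 (follistatin-like 1, r = 0.997). The nearest genes to Tgfb3 were Casq2 (cardiac calsequestrin, r = 0.990) and Lrrn1 (0.988), and those to Tgfb2 were Zfp945 (0.968) and Zfp280d (0.957). Ltbp2 was nearest to Ska3 (a kinetochore protein, r = 0.989) and Fblim1 (0.989), Ltbp1 to Slc1a3 (a glutamate transporter, r = 0.990) and Zc4h2 (0.990), and Ltbp3 to Prrg1 (0.987) and Mfge8 (0.986). Tgfbr1 was nearest to Fmr1 (0.982) and Tent5a (0.979), and Tgfbr3 to Lbp (0.974) and Tshz2 (0.965).

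Of the Smads that carry the signal, Smad2 rose at all 6 days, by 0.57 ± 0.08 at day 1 and 0.80 ± 0.08 at day 7. Smad3 and Smad4 fell at each day from day 3 on, and read -0.51 ± 0.06 and -0.29 ± 0.07 at day 7. Of 12 inhibitory Smads, corepressors and other brakes, 6 were higher and 2 lower at day 1, and 7 were higher and 4 lower at day 14 (limma, median 0.34 at day 14). Of all genes, 20.3% were higher and 34.7% lower at day 1, 28.5% and 37.8% at day 7, and 21.4% and 20.7% at day 14. The corepressor Tgif1 rose most, by 2.41 ± 0.09 at day 1, and the membrane adaptor Pmepa1, which sequesters Smad2 and Smad3, rose by between 0.86 and 1.22 at all 6 days. Ppm1a, a phosphatase reported to act on receptor-activated Smads, fell to -0.97 ± 0.11 at day 7. Of 10 co-receptors and receptor partners, 5 were higher and 1 lower at day 1 and 7 were higher and 1 lower at day 7, with the TGF-beta-binding co-receptor Cd109 at 3.11 ± 0.09, Tgfb1i1 at 1.92 ± 0.08 and the Smad anchor Zfyve9 at -1.36 ± 0.10.

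Among 20 measured genes that anchor or activate latent TGF-beta, 13 were higher and 4 lower at day 1, 16 were higher and 2 lower at day 7, and 16 were higher and 0 lower at day 14. The shares of all genes called higher and lower were 20.3% and 34.7%, 28.5% and 37.8%, and 21.4% and 20.7% at these days. Thrombospondin 1 (Thbs1), an activator of latent TGF-beta, rose by 2.85 ± 0.14 at day 1 and was 2.30 ± 0.14 above day 0 at day 14. The membrane protease Mmp14 (3.03 ± 0.08) and the microfibril protein Fbn2 (2.79 ± 0.15) led at day 7. Nrros, which tethers latent TGF-beta on myeloid cells, stood at 1.93 ± 0.07 at day 3. Of 5 small proteoglycans that bind TGF-beta, 1 was higher and 4 lower at day 1, with Fmod (fibromodulin) at -1.38 ± 0.15 and Aspn (asporin) at -0.92 ± 0.07. All 5 were higher at day 14, led by Lum (lumican) at 2.43 ± 0.12 and Aspn at 2.35 ± 0.07. Of 21 measured textbook targets of TGF-beta, 15 were higher and 2 lower at day 1 and 20 were higher and 1 lower at day 7, when the median was 2.11. Timp1 (5.06 ± 0.11 at day 3), Tnc (4.39 ± 0.15 at day 7) and Lox (4.18 ± 0.08 at day 5), which inhibit proteases, build provisional matrix and cross-link collagen, had the largest changes. That list holds Tgfbi itself and shares genes with other lists, among them Bgn and Pmepa1, and Col1a1 with the fibroblast markers used below. The proteoglycans Dcn and Lum are also fibroblast markers below, and Fmod is also a tendon marker. Mmp9 is both among the genes that anchor or activate latent TGF-beta and a neutrophil marker. Bambi is both among the brakes and among the co-receptors, and the target Acta2 is also a smooth muscle marker. Those lists therefore partly count the same genes.

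**Figure D3:**
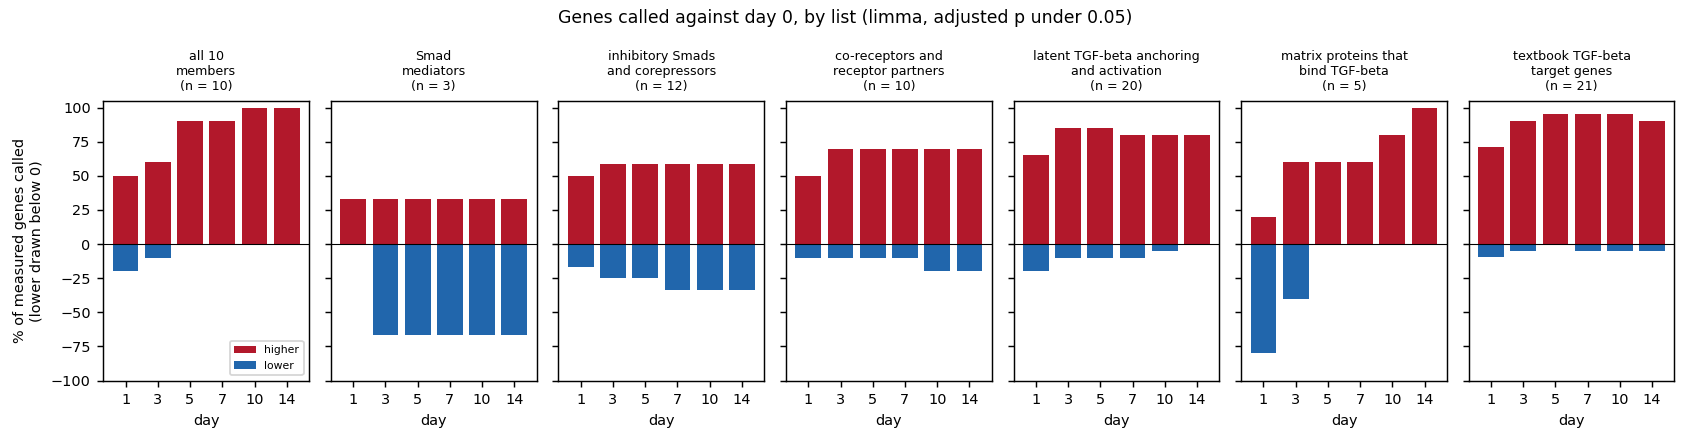
Percentage of measured genes called higher (red, above 0) or lower (blue, below 0) against day 0 at each day, for the 10 genes and for 6 lists of the wider pathway, with the number measured over each panel. The proteoglycans that bind TGF-beta go from 1 higher and 4 lower at day 1 to 5 higher at day 14, and the Smad mediators keep 1 higher and 2 lower from day 3 on. Shares of all genes are not drawn: 20.3% were higher and 34.7% lower at day 1. From day 3 on, 21.4% to 28.5% were higher and 20.7% to 38.1% lower.

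Markers of several cell types moved over the same days. All 10 macrophage markers were higher than day 0 at each day (20.3% to 28.5% of all genes), with a median of 3.25 on day 1, 3.34 on day 3, 2.54 on day 7 and 1.67 on day 14, on the log2 scale. Their summed intensity lay between 4660 and 5573 in the day 0 pools, between 37410 and 37510 at day 3 and between 16050 and 17100 at day 14. Single markers differed in their highest day: Cd68 was highest at day 3 (12.76), Itgam at day 1 (11.64) and Adgre1 at day 5 (11.38). Tgfb1 and Tgfbi, like the marker median, were highest at day 3 and lower at day 14 than at day 5. Tgfb1 stood as far above day 0 at day 1 (1.11) as at day 14 (1.12), unlike the marker median (3.25 and 1.67). Of 7 neutrophil markers, 7 were higher at day 1 and 3 at day 3 (20.3% and 24.2% of all genes). At day 5, 3 were higher and 1 lower (all genes 27.0% and 38.1%), and at day 7, 2 and 3 (28.5% and 37.8%). At day 10, 1 was higher and 3 lower (23.6% and 27.5%), and at day 14 0 were called in either direction by limma. Of 4 platelet markers, Pf4 (2.50 ± 0.11) and Ppbp (2.02 ± 0.24) were higher at day 1, and Gp9 (-0.10 ± 0.14) and Itga2b (0.06 ± 0.09) did not pass the test. At days 10 and 14, Pf4 was higher and the other 3 lower, with Ppbp at -1.73 and -1.49. Of all genes, 27.5% and 20.7% were lower at these days.

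Of 9 fibroblast and fibro-adipogenic markers, 2 were higher and 5 lower at day 1 (median -0.26). At day 3, 6 were higher and 2 lower (median 0.39), and 9 were higher at day 14 (median 1.51). Of all genes, 20.3% were higher and 34.7% lower at day 1, 24.2% and 23.4% at day 3, and 21.4% and 20.7% at day 14. The 2 fibroblast markers higher at day 1 and the 2 lower at day 3 are near these shares. The summed intensity of the fibroblast markers went from between 23690 and 25300 at day 0 to between 19770 and 20830 at day 1 and between 65360 and 67550 at day 14. Tgfb3 and Ltbp3 were likewise lower at day 1 and higher from day 5 on, but neither was called at day 3. Tgfbr2 stayed up at day 14. Medians of other lists were below 0 at day 1 as well. The tendon median was -0.28 at day 1 and 1.25 at day 10, the day at which Tgfb3 and Ltbp3 were highest. The smooth muscle and pericyte median was -0.91 at day 1 and 0.32 at day 14. Of 6 tendon markers, 1 was higher and 3 lower at day 1 (all genes 20.3% and 34.7%), and 6 were higher at days 10 and 14 (23.6% and 21.4% of all genes). Of 8 endothelial markers, 2 were higher and 4 lower at day 1 (all genes 20.3% and 34.7%), the 2 higher being near the share of all genes. At day 14, 6 were higher and 0 lower (21.4% and 20.7%). Of 7 satellite cell and myoblast markers, 6 were higher and 1 lower at day 7 (all genes 28.5% and 37.8%). Of 7 smooth muscle and pericyte markers, 6 were lower at day 1 (34.7% of all genes) and 4 higher at day 14 (21.4%). Of 6 lymphocyte markers, 4 were higher and 2 lower at day 10 (all genes 23.6% and 27.5%, marker median 0.44), and 2 were higher and 2 lower at day 14 (21.4% and 20.7%). Of 7 hepatocyte markers, 6 were lower at day 7 (37.8% of all genes) and 1 at day 14 (20.7%). The 10 skeletal muscle markers fell, 10 of 10 at days 3 and 7 (23.4% and 37.8% of all genes), with a median of -0.77 at day 7 and a summed intensity between 95090 and 105100, against 167000 and 167100 at day 0. They rose again from day 7 to day 10, 10 of 10 by limma (6.95% of all genes). At day 14, 3 of 10 were lower than day 0 (20.7% of all genes), with a marker median of -0.17 and a summed intensity between 149400 and 151900. The part of any of these cell types in the changes of the 10 genes was not tested, and in whole muscle a change in the number of cells of a type cannot be told apart from a change in RNA per cell.

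**Figure D4:**
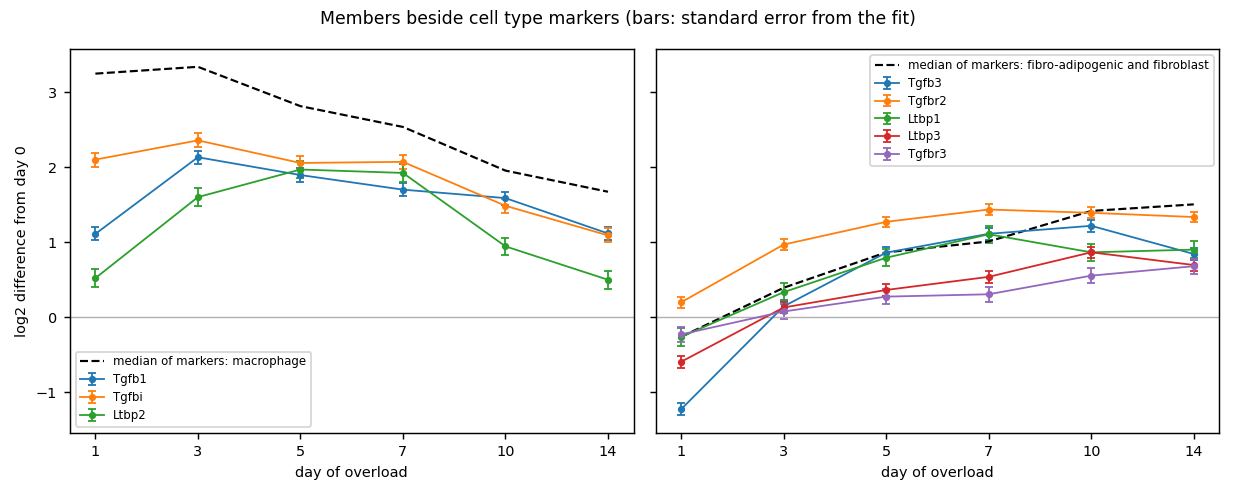
Log2 difference from day 0 by day for 3 genes beside the median of 10 macrophage markers (left, dashed) and for 5 genes beside the median of 9 fibroblast and fibro-adipogenic markers (right, dashed). Bars are standard errors from the fit. The panels were arranged after the values were seen, Tgfb2 and Tgfbr1 are not drawn, and both the macrophage median and Tgfb1 peak at day 3 (3.34 and 2.13). Some single macrophage markers peak at other days. At days 1 and 14 the median is 3.25 and 1.67, and Tgfb1 is 1.11 and 1.12.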

How the data were processed

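The deposited values are probe set intensities on a linear scale, made by the authors with Partek per the submitters' processing notes, with no version given. How probes were summarised and arrays normalized is not given in the sources used here. The labels give 100 ng of RNA in the series text and 250 ng in the labelling protocol.

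Intensities were taken to log2 and not normalized again. Of 35556 probe sets, 21789 had 1 gene symbol in the platform annotation, 1621 had several and 12146 had none given, and the brightest probe set stood for a gene. All 19938 genes were fitted in limma 3.58.1 (R 4.3.3) with 1 mean per day over the 14 arrays (7 residual degrees of freedom, prior 3.88). The contrasts were each day against day 0, the consecutive steps and day 14 against day 5. A gene was called at a two-sided Benjamini-Hochberg adjusted p under 0.05 over all genes, and called genes are said to have risen or fallen. Fold changes are 2 to the power of the log2 difference. Up to 3 genes per list and comparison were named, those with the largest called changes, besides Acta1 and Ckm for the tissue check. For each member the 2 genes with the most similar pattern were named. List genes with no matching probe set in the files used were not analysed here. The fit was tested on simulated data with independent noise in each gene and changes at day 3 in a small set of genes. That setting is unlike these arrays, so it shows nothing about deviations that genes of a pool share. The members and lists were chosen with earlier results of these data known. The number of arrays limits the precision, with a median standard error of 0.0988 for a difference between days. Figures used matplotlib 3.10.9.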

Additional observations from a re-analysis of the deposited data

How the results depend on the processing

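The fit was repeated with quantile normalization, with arrays at equal medians, without the dimmest genes , with the mean over a gene's probe sets, with a robust or a trended prior, with side as a block, with the arrays of the days compared alone, without each array in turn, and without the 2 pools highest in hepatocyte genes. Over these 23 settings the F test called all 10 genes wherever it was run, which excludes the fits to the arrays of the days compared alone. The 120 changes of single genes gave 2760 values over these settings. Of these values, 2653 kept their call and sign, 64 lost a call, 28 gained one and 15 changed sign, all 15 called in neither fit. Averaging probe sets cannot move the differences of these genes, which have 1 probe set each, and dropping an array of another day leaves a difference as it was and moves only its error. Of 52 calls against day 0, 6 were lost in some setting, each named above.

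Counts moved by over 1.5 times as follows. Quantile normalization gave 4 lower at day 1 and 2 higher from day 7 to day 10. From day 3 to day 5, 1 was lower without the dimmest genes or with a trended prior, and 2 were higher with only the arrays of those days. Leaving out single pools gave 2 to 5 higher and 0 to 1 lower from day 3 to day 5, 0 to 1 higher from day 7 to day 10, 0 to 4 lower from day 10 to day 14, and 1 to 3 higher for day 14 against day 5. With fewer arrays in a day its mean has less support, and beyond that the cause was not tested.

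The values that changed sign were 0.0212 (quantile) and 0.0198 (without both pools) for Tgfbr1 from day 1 to day 3, 0.0213 (quantile) for Tgfb3 at day 14 against day 5, and -0.0119 (equal medians) for Tgfbi from day 5 to day 7. Without single pools the ranges were -0.0492 to 0.0248 for Tgfbr1, -0.1095 to 0.0735 for Tgfb3 and -0.1014 to 0.1313 for Tgfbi in those comparisons. They were -0.0061 to 0.1631 for Tgfbr3 at day 3, -0.0048 to 0.2208 for Ltbp1 at day 14 against day 5 and -0.0221 to 0.0943 from day 10 to day 14. They were also -0.2208 to 0.1298 for Ltbp2 from day 5 to day 7 and -0.0246 to 0.069 for Tgfb2 from day 10 to day 14.

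The right pools did not deviate alike at all days: over the 21 pairs of days, their deviations from the day means correlated between -0.583 and 0.438, and 9 were over 0.1. These values compare different days, so they cannot show if both pools of a day come from the same mice. Side as a replicate block changed the call of 0 of the 120 changes. No probe has a deposited detection call here, so the array's floor for dim genes is unknown.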
